A study of Homo sapiens with 27 samples.

Results

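Oncostatin M (OSM) and transforming growth factor beta (TGFB) were given to MCF10A cells alone and together, and the response to the pair was set against the sum of the responses to each. The comparison used 12 of the 27 RNA-seq libraries of the series, 3 for each of the groups PBS, OSM, TGFB and OSM+TGFB. MCF10A is an established, non-tumorigenic human mammary epithelial line. All groups shared the same history: the cells were grown with epidermal growth factor (EGF, 20 ng/ml), insulin (10 µg/ml), cholera toxin (100 ng/ml), hydrocortisone (0.5 µg/ml) and 5% horse serum, were seeded on collagen-1 and rinsed 6 h later, and then spent 18 h without growth factors. Each ligand was added at 10 ng/ml in fresh medium without growth factors, the PBS group received phosphate-buffered saline, and RNA was taken after 24 h. The same contrast was also read in 12 further libraries (EGF, EGF+OSM, EGF+TGFB and EGF+OSM+TGFB) in which every group received EGF, also at 10 ng/ml.

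OSM is a cytokine of the interleukin-6 family. It binds a receptor pair of OSMR and gp130 (gene IL6ST), which turns on JAK kinases, the transcription factor STAT3 and the ERK pathway, with SOCS3 as a feedback inhibitor. TGFB binds serine/threonine kinase receptors that activate SMAD2 and SMAD3. In mammary epithelial cells TGFB is known to arrest growth and to raise matrix genes and genes of epithelial-mesenchymal transition, while OSM is known to drive acute-phase genes and cell spreading.

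Levels are given in counts per 1000000 (CPM) of a library after scaling. The departure is the log2 fold change of OSM+TGFB against PBS minus the log2 fold changes of OSM and of TGFB, each against PBS. It is 0 when log2 fold changes add, so that folds multiply, and a departure of 1 means that the combination stood at 2 times the level given by the product of the folds. Departures are printed as log2 ± SE, levels as mean CPM ± SD over 3 libraries, and a value was called at an adjusted p under 0.05 in edgeR's quasi-likelihood test. The 12 libraries held 35.2 to 46.6 M (mega) counts each, and replicates of a group varied by a biological coefficient of variation of 10.1%. Mitochondrially encoded transcripts took 2.85 to 3.06% of the counts in PBS and 1.4 to 1.49% in OSM+TGFB, and their part in the results was not tested.

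The combination departed from the sum in 3565 of 16611 rows tested (21.5%), where a row is a gene identifier. The departure was positive in 1471 rows (8.86%) and negative in 2094 (12.6%), and it was at least 2-fold in 725 (232 positive, 493 negative). The median departure over all rows tested was -0.00639. Against PBS, OSM alone changed 10129 rows (61%), TGFB alone 5569 (33.5%) and the pair 10554 (63.5%).

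Most departures brought the combination back towards PBS. In 1491 rows (8.98%) the sum lay above PBS and the combination fell short of it, with a median departure of -0.58. The combination was still called above PBS in 1089 of these rows and was not called against PBS in 402. The median ratio of the measured to the summed log2 change was 0.483. In 725 rows (4.36%) the sum lay below PBS and the combination did not go as low, with a median departure of 0.53 and a median ratio of 0.426. Here 491 rows were still called below PBS. Rows of both classes were chosen for a departure called against the sum, so a shortfall follows from the definition. The medians and ratios describe the chosen rows and carry no test.

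The combination exceeded the sum upward in 641 rows (3.86%; median departure 0.39) and downward in 464 (2.79%; median departure -0.47). Neither ligand alone was called in 146 of the upward rows, only OSM in 153, only TGFB in 96 and both in 246. In 534 of the 641 upward rows OSM+TGFB was also called above OSM alone and above TGFB alone, and in 326 of the 464 downward rows it was called below both. A sum on one side of PBS was turned into a combination called on the other side in 34 rows that went up (0.205%) and 26 that went down (0.157%). The remaining called rows, 71 positive (0.427%) and 113 negative (0.68%), had neither a called sum nor a called combination that would place them.

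Negative departures were commonest among rows that OSM raised. Of the 1840 rows raised by both ligands, 565 (30.7%) had a negative departure and 133 (7.23%) had a positive departure. Of the 2987 rows raised by OSM and not called for TGFB, 936 (31.3%) had a negative departure. Of the 1292 rows lowered by both, 310 (24%) had a positive departure and 44 (3.41%) a negative one. Where neither ligand was called, 170 of 5127 rows (3.32%) departed positively and 144 (2.81%) negatively. The departure and the sum share the PBS, OSM and TGFB libraries with opposite signs, so these shares describe the rows and carry no test.

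**Figure D1:**
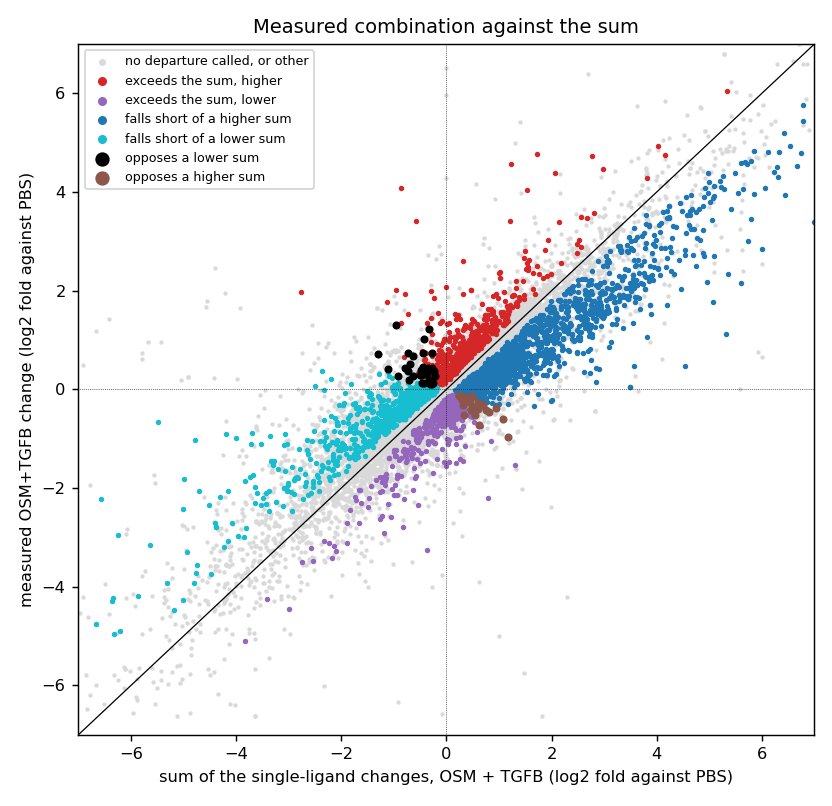
Measured log2 fold change of OSM+TGFB against PBS (vertical) plotted against OSM and TGFB added together (horizontal), 1 point per row tested, with the diagonal marking additivity. Of the 16611 rows, 188 lie outside the axes, and the coloured points are the 6 classes of called departure, with the 1491 rows that fell short of a higher sum as the largest class.

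Among genes with a mean of 5 CPM or more in some of the 4 groups, SLCO2A1 showed the largest departure above the sum. It encodes the prostaglandin transporter and lies on chromosome 3, 133932701 to 134052184, minus strand (GENCODE v44, GRCh38). It measured 4.195, 4.95 and 4.45 CPM in PBS, 16.4, 11.2 and 15.9 in OSM, 4.02, 3.501 and 2.51 in TGFB and 116, 95.9 and 109.8 in OSM+TGFB. The 3 OSM+TGFB libraries stood far above the other 9, and TGFB overlapped no PBS library. The sum gave a log2 change of 1.23 ± 0.31 and the combination 4.56 ± 0.16, a departure of 3.33 ± 0.24 (adjusted p = 6.2e-09).

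LMCD1, a LIM domain protein on chromosome 3, 8501807 to 8574668, plus strand, was low in 9 of the 12 libraries. Its level was 1.12, 0.990 and 1.35 CPM in PBS, 1.99, 1.66 and 1.11 in OSM, 2.69, 2.73 and 2.87 in TGFB and 31.6, 30.01 and 33.3 in OSM+TGFB. OSM overlapped PBS, TGFB lay above both, and the combination lay above all of them with no overlap. Its departure was 3.05 ± 0.22 (adjusted p = 2.8e-09).

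WNT5A, a non-canonical WNT ligand on chromosome 3, 55465715 to 55490539, minus strand, was lowered by OSM alone and raised by the pair. The libraries held 7.17, 6.74 and 7.95 CPM in PBS, 4.61, 4.61 and 4.51 in OSM, 9.24, 8.75 and 11.6 in TGFB and 31.2, 21.8 and 25.7 in OSM+TGFB. The OSM libraries were the lowest of the 12 and the OSM+TGFB libraries the highest, without overlap. The departure was 2.08 ± 0.25 (adjusted p = 5.3e-06).

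COL27A1, a fibrillar collagen chain, averaged 1.29, 4.23, 3.14 and 28.8 CPM in PBS, OSM, TGFB and OSM+TGFB, and departed by 1.501 ± 0.29. FNIP2, a folliculin-interacting protein of nutrient sensing, averaged 18.3, 24.6, 16.9 and 69.5 CPM in the same order and departed by 1.61 ± 0.14. PAPSS2, which makes the sulfate donor used on matrix glycosaminoglycans, averaged 2.34, 3.31, 1.497 and 6.89 CPM and departed by 1.71 ± 0.27. MEIS3, a homeodomain factor, averaged 1.9998, 1.22, 2.66 and 5.47 CPM and departed by 1.74 ± 0.25. Adjusted p for these 4 genes ran from 2.2e-08 to 5.9e-04. LCE3D, a late cornified envelope protein, averaged 2.36, 1.08, 3.13 and 6.78 CPM with a departure of 2.25 ± 0.64 (adjusted p = 0.015). Without PBS replicate 3 the LCE3D departure was 1.78 and was no longer called (adjusted p = 0.061), nor was it called in the 12 libraries alone (adjusted p = 0.068).

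EPCAM, the epithelial cell adhesion molecule, went below the sum. It measured 10.4, 10.4 and 8.02 CPM in PBS, 6.37, 6.95 and 5.73 in OSM, 15.3, 15.9 and 12.3 in TGFB and 2.72, 3.83 and 3.25 in OSM+TGFB. The OSM+TGFB libraries were the lowest and the TGFB libraries the highest of the 4 groups, and no OSM+TGFB library overlapped another group. OSM and TGFB moved it in opposite directions, so that the sum was -0.00 ± 0.22, and the departure was -1.55 ± 0.19 (adjusted p = 4.9e-06). NUP210, a nuclear pore glycoprotein, averaged 9.73, 14.3, 7.53 and 3.45 CPM and departed by -1.68 ± 0.20. SLC43A3, a purine transporter, averaged 40.2, 79.3, 30.5 and 22.2 CPM and departed by -1.44 ± 0.29. KCNQ5, a potassium channel, and NMU, the peptide neuromedin U, departed by -1.500 ± 0.32 and -1.54 ± 0.35. METTL7A, a lipid-droplet methyltransferase, dropped from 127 CPM in PBS to 5.79 in the pair, with 21.4 in OSM and 93.8 in TGFB, a departure of -1.45 ± 0.20. Adjusted p for these 5 genes ran from 2.8e-06 to 0.0031.

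**Figure D2:**
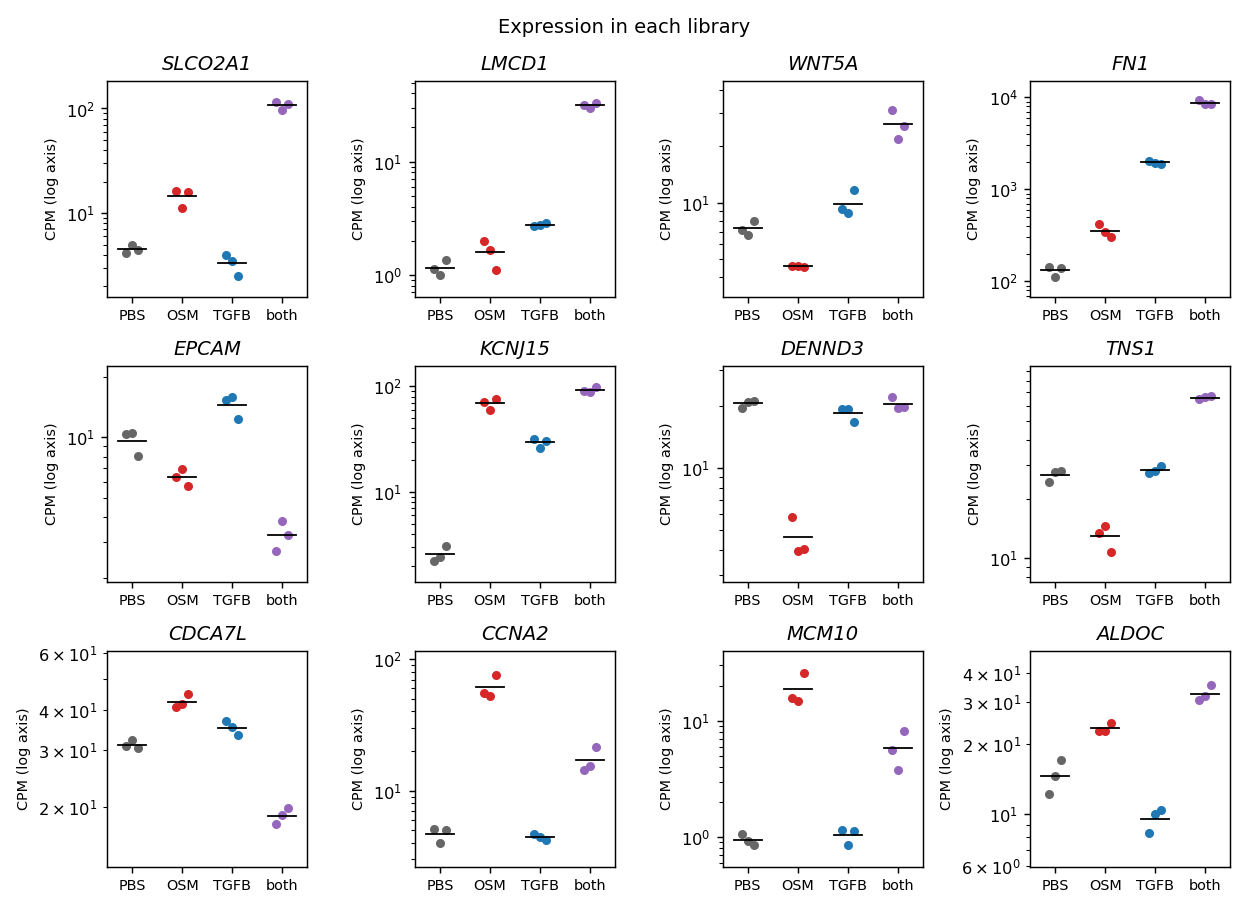
CPM (log axis) of 12 genes in each of the 12 libraries, with the group mean as a bar where the axis label both stands for OSM+TGFB. SLCO2A1, LMCD1 and WNT5A are highest in the combination, CCNA2 and MCM10 are highest in OSM, and DENND3 in OSM+TGFB overlaps PBS.

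The largest gene programme to fall short of the sum was that of the dividing cell. OSM alone raised the genes of DNA replication and mitosis, TGFB alone left them near or below PBS, and with both ligands they rose much less than with OSM. Of 44 DNA replication genes (helicase subunits, origin factors, polymerases and clamp loaders), 43 had a called negative departure and 0 a positive one, against 12.6% and 8.86% of all rows. Their median log2 changes were 1.87 in OSM, -0.07 in TGFB and 0.71 in OSM+TGFB. The summed median was 1.77 and the median departure -1.11. All 44 were called lower in OSM+TGFB than in OSM alone (all rows 24.2%), and 36 were called higher than in TGFB alone (all rows 28.9%). The gene not called for the departure was GINS3.

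Mitosis genes (cyclins, spindle, kinetochore and checkpoint proteins) followed a similar course. Of 61 tested, 56 departed below the sum and 0 above it, with medians of 3.43 in OSM, -0.41 in TGFB, 1.67 in the pair and -1.23 for the departure. Against OSM alone 60 were lower, and against TGFB alone all 61 were higher. The 5 members not called for the departure were DLGAP5, SKA1, BUB1B, HMMR and CDC25B. Leaving out 1 library at a time gave 39 (without TGFB replicate 3) to 59 called members of mitosis and 41 to 44 of DNA replication. In bulk RNA, fewer cycling cells and less of these transcripts per cell cannot be told apart.

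CCNA2, cyclin A2, which drives S phase and the entry into mitosis, shows the course in single libraries. It measured 5.12, 3.96 and 5.01 CPM in PBS, 55.2, 52.3 and 76.2 in OSM, 4.64, 4.44 and 4.18 in TGFB and 14.4, 15.4 and 21.3 in OSM+TGFB. The OSM libraries were the highest, the combination lay between OSM and the other groups with no overlap, and PBS and TGFB overlapped. The departure was -1.76 ± 0.33 (adjusted p = 5.7e-04).

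MCM10, an origin-firing factor, held 1.07, 0.926 and 0.856 CPM in PBS, 15.8, 14.9 and 25.7 in OSM, 1.15, 0.863 and 1.12 in TGFB and 5.55, 3.77 and 8.24 in OSM+TGFB. The order of the groups was the same, with PBS and TGFB overlapping and OSM+TGFB below every OSM library. It departed by -1.81 ± 0.51 (adjusted p = 0.014). MYBL2, a transcription factor of the cell cycle, averaged 3.903, 88.5, 4.69 and 32.4 CPM and departed by -1.71 ± 0.34. RFC3 (clamp loader), ORC1 (origin recognition) and POLE2 (polymerase epsilon) departed by -1.73 ± 0.20, -1.62 ± 0.25 and -1.60 ± 0.31, and NCAPH (condensin) by -1.52 ± 0.34. SPC25, a kinetochore protein with 2 rows in the table, departed by -2.42 ± 0.80, and its call was lost without PBS replicate 2, PBS replicate 3, OSM replicate 3 or TGFB replicate 1 (adjusted p 0.07 to 0.18), and also without a filter (adjusted p = 0.079) or in the 12 libraries alone (adjusted p = 0.13).

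Among 32 genes of G1 control, 9 departed negatively and 2 positively (all rows 12.6% and 8.86%). E2F7, an E2F repressor, CCNE2 (cyclin E2), CDC25A (the phosphatase that frees CDK2) and RBL1 (p107) fell short of higher sums by -1.66 ± 0.29, -1.45 ± 0.31, -1.32 ± 0.29 and -1.13 ± 0.18. The positive ones were CCND3 (cyclin D3; 0.23 ± 0.08) and CDKN1A (p21, an inhibitor of cyclin-dependent kinases), which averaged 477, 253, 522 and 453 CPM and departed by 0.71 ± 0.17. The CCND3 call was lost without PBS replicate 2, PBS replicate 3, OSM replicate 1, OSM replicate 3, TGFB replicate 1, TGFB replicate 2, OSM+TGFB replicate 2 or OSM+TGFB replicate 3 (adjusted p 0.058 to 0.18), and also without a filter (adjusted p = 0.051) or in the 12 libraries alone (adjusted p = 0.069). MYC, the growth-promoting transcription factor, measured 252, 255 and 247 CPM in PBS, 384, 398 and 362 in OSM, 195, 189 and 197 in TGFB and 166, 177 and 191 in OSM+TGFB. The OSM libraries were the highest and the combination lay below PBS and OSM, partly overlapping TGFB. The MYC departure was -0.72 ± 0.13 (adjusted p = 2.2e-04). CDK4, the cyclin D partner, opposed its sum at 68.3, 102, 57.9 and 56.9 CPM, with a departure of -0.60 ± 0.11.

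**Figure D3:**
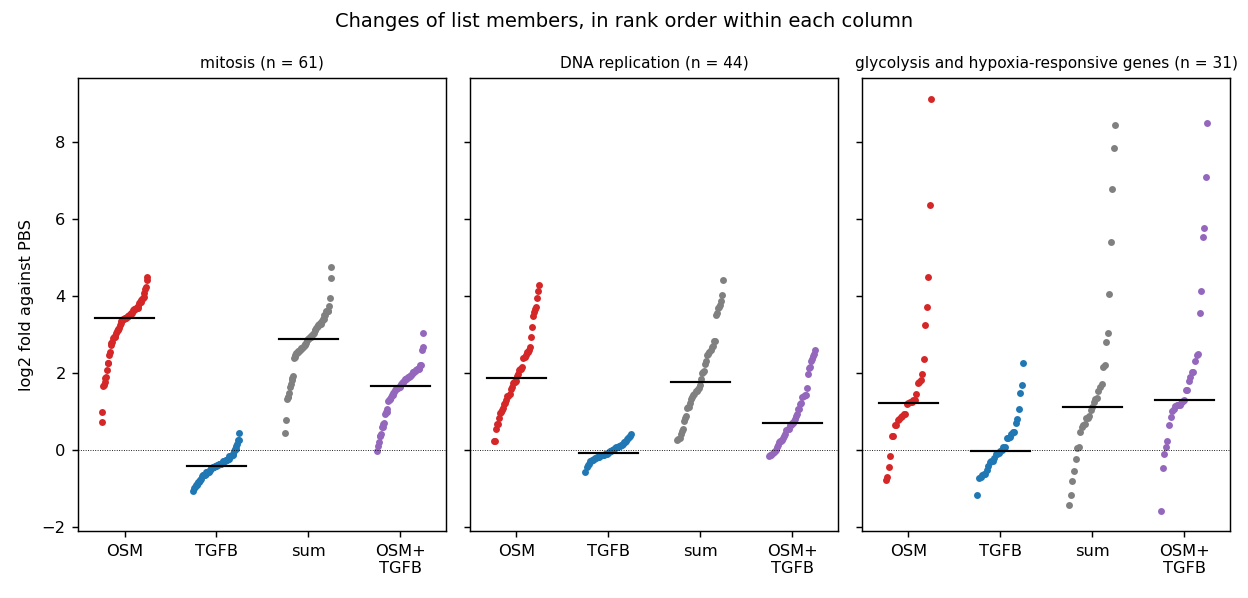
Log2 fold change against PBS of every tested member of 3 lists (61 mitosis, 44 DNA replication, 31 glycolysis and hypoxia genes), ranked within each column, with the median as a bar. In the first 2 lists OSM+TGFB lies between TGFB and the sum, and in the glycolysis list its median lies above that of the sum.

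Promoter sequences are shown for the first genes of the exceeding and falling-short classes held in the RefSeq promoter table (LMCD1 and TNFRSF6B), and for 4 members of the cell cycle and glycolysis lists chosen after their values were seen (CCNA2, KIF23, CDCA8 and ALDOC). Each runs 5′ to 3′ on the gene's strand over the 160 bases before the RefSeq start (GRCh38.p14). Capitals mark CCAAT (the box bound by NF-Y), TTTGAA (the cell cycle homology region, CHR, of late cell cycle genes), ACGTG (the core of the hypoxia response element) and TGANTCA (the AP-1 site), on either strand. The positions are chr3:8501663-8501822, plus strand (LMCD1), chr20:63696492-63696651, plus strand (TNFRSF6B), chr4:121823884-121824043, minus strand (CCNA2), chr15:69414189-69414348, plus strand (KIF23), chr1:37692356-37692515, plus strand (CDCA8) and chr17:28576896-28577055, minus strand (ALDOC).
LMCD1: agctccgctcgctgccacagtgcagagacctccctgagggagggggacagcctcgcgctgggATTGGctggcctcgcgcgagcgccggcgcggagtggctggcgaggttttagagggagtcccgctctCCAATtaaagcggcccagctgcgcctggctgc
TNFRSF6B: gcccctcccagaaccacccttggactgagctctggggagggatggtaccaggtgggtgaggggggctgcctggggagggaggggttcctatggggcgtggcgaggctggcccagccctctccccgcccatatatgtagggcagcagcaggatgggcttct
CCNA2: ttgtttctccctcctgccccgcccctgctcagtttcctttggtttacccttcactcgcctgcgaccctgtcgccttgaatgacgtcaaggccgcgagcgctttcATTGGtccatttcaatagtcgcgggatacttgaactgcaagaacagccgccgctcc
KIF23: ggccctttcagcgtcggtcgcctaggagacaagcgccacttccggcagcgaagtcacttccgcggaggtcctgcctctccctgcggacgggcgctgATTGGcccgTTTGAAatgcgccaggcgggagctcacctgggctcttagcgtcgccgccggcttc
CDCA8: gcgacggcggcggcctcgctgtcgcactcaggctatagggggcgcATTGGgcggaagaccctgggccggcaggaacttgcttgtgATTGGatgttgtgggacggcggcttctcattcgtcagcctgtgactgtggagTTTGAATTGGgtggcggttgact
ALDOC: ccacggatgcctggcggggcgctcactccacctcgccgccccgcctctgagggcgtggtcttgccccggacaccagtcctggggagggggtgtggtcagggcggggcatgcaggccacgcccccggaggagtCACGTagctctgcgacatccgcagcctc

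KIF23 (a midzone kinesin) and CDCA8 (a chromosomal passenger protein) hold both TTTGAA and CCAAT near the start, and in CDCA8 a TTTGAA and a reverse CCAAT overlap. Over 250 bases before the start, CCAAT was found in 67.5% of the 83 called DNA replication and mitosis genes with a promoter, in 41.2% of the 1144 genes that fell short of a higher sum, in 34.7% of the 11408 tested genes and in 33% of all 27305 promoters. TTTGAA was found in 26.5%, 13%, 8.87% and 13.6% of the same sets. The E2F letters TTCGCGC or TTGGCGC were found in 15.7%, 9.53%, 7.04% and 4.37%. Among the 529 genes that exceeded the sum upward, TGANTCA stood in 3.78% (tested genes 4.46%), the SMAD letters CAGAC in 36.1% (36.1%) and the STAT letters TTCNNNGAA in 5.67% (5.56%). These are letter matches, described without a test.

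Glycolysis and hypoxia-responsive genes went the other way. Of 31 tested, 18 departed above the sum and 3 below it (all rows 8.86% and 12.6%), with a median departure of 0.38. In 19 of the 31 the combination was called above PBS, OSM and TGFB, as it was in 12.3% of all rows. OSM alone gave a median log2 change of 1.23 and TGFB alone -0.02. Departures were small, and 2 members passed 2-fold, ALDOC above the sum and ANGPTL4 below it. Leaving out 1 library at a time gave 19 to 21 called members.

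ALDOC, the brain-type aldolase, held 12.2, 14.6 and 17.05 CPM in PBS, 22.6, 22.6 and 24.4 in OSM, 8.32, 9.98 and 10.4 in TGFB and 30.9, 31.8 and 35.5 in OSM+TGFB. The TGFB libraries were the lowest and the OSM+TGFB libraries the highest, and no groups overlapped. Its departure was 1.11 ± 0.16 (adjusted p = 3.5e-05). PFKFB4, which sets the fructose-2,6-bisphosphate that drives glycolysis, averaged 8.86, 24.3, 9.42 and 49.4 CPM and departed by 0.94 ± 0.19. VEGFA, the angiogenic growth factor, averaged 24.4, 127, 32.8 and 289.9 CPM and departed by 0.76 ± 0.18. BNIP3, a mitophagy receptor, departed by 0.72 ± 0.12. The enzymes of the main path moved less, with TPI1 at 0.57 ± 0.08, PGK1 at 0.53 ± 0.09 and GAPDH at 0.40 ± 0.07.

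The glucose transporter SLC2A1 averaged 238, 215, 152 and 223 CPM, so that the combination returned to the PBS level from a lower sum (departure 0.70 ± 0.09), and hexokinase 1 (HK1) departed by 0.70 ± 0.07. The 3 negative members were ANGPTL4, a lipase inhibitor (-1.02 ± 0.26), NDRG1 (-0.55 ± 0.15) and LDHA, lactate dehydrogenase A (-0.36 ± 0.08). The hypoxia letters ACGTG, in capitals in the ALDOC sequence, stood in 8 of the 17 positive members with a promoter (47.1%), in 25.3% of the genes that exceeded the sum upward and in 22.7% of tested genes. They also stood in 32.5% of the cell cycle members.

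Among genes with a mean of 5 CPM or more in some group, the 6 with the largest shortfalls from a higher sum started from a low PBS level. KCNJ15, an inward-rectifier potassium channel on chromosome 21, 38155549 to 38307357, plus strand, measured 2.22, 2.41 and 3.06 CPM in PBS, 71.2, 59.8 and 75.5 in OSM, 31.8, 25.8 and 30.6 in TGFB and 90.7, 88.7 and 98.6 in OSM+TGFB. The combination lay above OSM and TGFB in every library, yet the sum of the log2 changes was 8.26 ± 0.24 and the departure -3.09 ± 0.16 (adjusted p = 1.0e-11). ZBED2, a transcription factor of keratinocytes, and SPOCD1 departed by -2.79 ± 0.38 and -2.71 ± 0.496, from PBS levels of 0.536 and 0.103 CPM. SCG5, a chaperone of secretory granules, rested on 4 counts in PBS and departed by -3.65 ± 0.67.

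For TNFRSF6B, a decoy receptor of Fas ligand, the 3 PBS libraries held 0 counts in all, against 3540 in OSM, 25 in TGFB and 1299 in OSM+TGFB. MFAP2, a microfibril protein, held 0, 124, 33 and 615 counts in the same order. With no counts in PBS the size of their fitted departure depends on the prior count and is not printed. Both were called, TNFRSF6B at an adjusted p of 0.0097 (0.062 without TGFB replicate 3) and MFAP2 at 0.0061.

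Several feedback genes of both pathways fell short of their sums. SOCS3, the feedback inhibitor of gp130 signalling, held 1.199, 1.83 and 1.44 CPM in PBS, 169, 182 and 143 in OSM, 2.87, 3.21 and 3.01 in TGFB and 159.8, 163 and 140.3 in OSM+TGFB. OSM and OSM+TGFB overlapped, far above PBS and TGFB, so that the rise after TGFB alone did not add to that of OSM. The departure was -1.11 ± 0.22 (adjusted p = 0.001). SOCS2 departed by -0.52 ± 0.10. OSMR, the receptor chain paired with gp130, rose in both single treatments and with both ligands, at 79.8, 556, 165 and 805 CPM, and departed by -0.51 ± 0.10. IL6ST, the shared gp130 chain, exceeded its sum at 147, 194, 143 and 257 CPM with a departure of 0.45 ± 0.07.

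Of the 28 tested genes of the gp130, JAK-STAT and SOCS list, 6 departed positively and 4 negatively (all rows 8.86% and 12.6%). Without PBS replicate 2, 6 in all were called. SOCS1, a further inhibitor of JAK kinases, ran against SOCS3. It measured 5.92, 5.12 and 5.796 CPM in PBS, 0.455, 0.244 and 0.324 in OSM, 5.896, 5.203 and 4.51 in TGFB and 1.99, 1.09 and 0.928 in OSM+TGFB. OSM lowered it to the lowest level of the 4 groups, TGFB overlapped PBS, and OSM+TGFB lay above every OSM library and below every PBS library. The departure was 2.09 ± 0.33 (adjusted p = 8.3e-05).

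Of 35 genes of the SMADs and TGFB feedback, 9 fell short of a higher sum and 1, the SMAD ubiquitin ligase SMURF1 (0.54 ± 0.11), exceeded it. These 2 classes held 8.98% and 3.86% of all rows. PMEPA1, an inhibitor of SMAD signalling, measured 48.4, 44.2 and 46.6 CPM in PBS, 223, 198 and 214 in OSM, 505, 476 and 450.2 in TGFB and 770.3, 727 and 712 in OSM+TGFB. The groups did not overlap, and the combination was the highest, but below the sum by -1.56 ± 0.14 (adjusted p = 1.0e-07). FST, follistatin, which binds activins, averaged 0.509, 0.810, 4.705 and 1.68 CPM, so that OSM+TGFB lay below TGFB alone, with a departure of -2.16 ± 0.37. LTBP2 and LTBP1, matrix proteins of the LTBP family, departed by -1.13 ± 0.11 and -0.56 ± 0.12, and SMAD3 by -0.53 ± 0.10. TGFB2, a ligand itself, departed by -1.19 ± 0.39, and its call was lost without PBS replicate 1, PBS replicate 3, OSM replicate 2, OSM replicate 3, TGFB replicate 2 or OSM+TGFB replicate 1 (adjusted p 0.06 to 0.1), and also without a filter (adjusted p = 0.063).

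In the list of EGF family ligands, receptors and ERK feedback, 13 of 35 departed negatively and 2 positively (all rows 12.6% and 8.86%). AREG, amphiregulin, an EGF receptor ligand, held 12.01, 10.9 and 9.37 CPM in PBS, 56.8, 42.3 and 80.4 in OSM, 14.9, 13.8 and 15.8 in TGFB and 24.6, 20.9 and 33.5 in OSM+TGFB. The 4 groups did not overlap, with the combination between TGFB and OSM. AREG departed by -1.64 ± 0.34 (adjusted p = 0.0018). The ERK-dependent factors ETV1 and ETV5 departed by -2.49 ± 0.33 and -1.55 ± 0.26, the ERK phosphatase DUSP6 by -1.04 ± 0.27 and FOSL1, an AP-1 subunit, by -0.80 ± 0.18. The positive ones were the ligand EPGN (1.07 ± 0.23), which fell in all 3 treatments, and the phosphatase DUSP1 (0.34 ± 0.10). The DUSP1 call was lost without OSM replicate 3 (adjusted p = 0.051).

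Where the sum lay below PBS, the combination was held up in 725 rows (4.36% of all rows). DENND3, a Rab guanine nucleotide exchange factor, held 19.5, 20.9 and 21.2 CPM in PBS, 5.802, 3.96 and 4.05 in OSM, 19.4, 19.4 and 16.6 in TGFB and 22.02, 19.5 and 19.8 in OSM+TGFB. OSM lowered it below all other groups, and OSM+TGFB overlapped PBS. The departure was 2.31 ± 0.18 (adjusted p = 9.7e-09), and the combination did not differ from PBS by a called amount (log2 -0.01 ± 0.12, adjusted p = 0.96). CLIC3, a chloride channel protein, averaged 7.34, 0.824, 7.69 and 3.92 CPM and departed by 2.17 ± 0.32. WNT4, a WNT ligand of the mammary gland, averaged 6.05, 0.387, 1.89 and 0.675 CPM and departed by 2.47 ± 0.42.

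TMEM265 measured 11.4, 16.3 and 11.9 CPM in PBS, 0, 3.59 and 3.38 in OSM, 11.4, 13.7 and 13.8 in TGFB and 11.3, 14.6 and 15.8 in OSM+TGFB, with one OSM library at 0. Its departure was 2.57 ± 0.74 (adjusted p = 0.019), not called with DESeq2 (adjusted p = 0.06) or in the 12 libraries alone (adjusted p = 0.07). KRT1, keratin 1 of the suprabasal epidermis, averaged 92.1, 0.386, 8.54 and 0.334 CPM, near its lowest with OSM alone already, and departed by 3.21 ± 1.02 (adjusted p = 0.029). The KRT1 call was lost without OSM replicate 1, OSM+TGFB replicate 1 or OSM+TGFB replicate 3 (adjusted p 0.058 to 0.11), and also without a filter (adjusted p = 0.058) or in the 12 libraries alone (adjusted p = 0.081). BMF, a pro-apoptotic BH3-only protein, measured 109, 118 and 122 CPM in PBS, 14.5, 18.1 and 10.3 in OSM, 144, 156 and 149 in TGFB and 62.7, 64.3 and 44.9 in OSM+TGFB. The OSM libraries were the lowest, and OSM+TGFB lay between OSM and PBS without overlap. BMF departed by 1.63 ± 0.28 (adjusted p = 3.3e-04). In the BCL2 family list 5 of 18 departed positively and 2 negatively (all rows 8.86% and 12.6%). The negative ones were BCL2 itself (-2.21 ± 0.41, at most 1.22 CPM in any group mean) and BCL2A1, whose mean stayed under 1 CPM. The BCL2A1 call was lost without PBS replicate 2, PBS replicate 3, OSM replicate 2, OSM replicate 3, TGFB replicate 2, OSM+TGFB replicate 1 or OSM+TGFB replicate 3 (adjusted p 0.052 to 0.17), and also without a filter (adjusted p = 0.082).

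Genes whose combination went against the sum were few. TNS1, tensin 1, an adapter between integrins and actin on chromosome 2, 217799588 to 218033982, minus strand, held 24.4, 27.5 and 27.7 CPM in PBS, 13.5, 14.5 and 10.8 in OSM, 27.2, 27.8 and 29.5 in TGFB and 64.6, 65.998 and 66.97 in OSM+TGFB. OSM lowered it, TGFB overlapped PBS, and the combination was above every other library. It departed by 2.26 ± 0.15 (adjusted p = 4.9e-10). PDE4DIP, myomegalin, a Golgi and centrosome scaffold, averaged 268, 239, 237 and 626 CPM and departed by 1.56 ± 0.08 (adjusted p = 3.7e-12). COL5A3, a fibrillar collagen chain, averaged 5.14, 3.47, 3.54 and 6.84 CPM and departed by 1.52 ± 0.24.

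In the other direction, CDCA7L, a MYC-interacting nuclear protein, held 30.8, 32.2 and 30.4 CPM in PBS, 40.8, 41.6 and 44.7 in OSM, 36.9, 35.4 and 33.3 in TGFB and 17.7, 18.8 and 19.8 in OSM+TGFB. OSM lay above PBS and the combination below every other library. It departed by -1.35 ± 0.11 (adjusted p = 1.2e-08). SAPCD2, a regulator of spindle orientation, averaged 5.31, 17.6, 3.39 and 3.48 CPM and departed by -1.69 ± 0.28. FZD4, a WNT receptor, averaged 3.86, 7.79, 3.67 and 2.96 CPM and departed by -1.32 ± 0.22. Opposition depended on single libraries: without PBS replicate 2 the upward class held 13 rows and without PBS replicate 1 the downward class held 14.

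Matrix genes had calls in both directions. Of 23 collagens, 8 departed positively and 4 negatively, and of 23 matricellular proteins 3 and 5 (all rows 8.86% positive and 12.6% negative). COL4A1 and COL4A2, the basement membrane chains, were raised by each ligand and stood higher still with both, and departed by -1.07 ± 0.18 and -1.23 ± 0.14 from OSM+TGFB levels of 404 and 605 CPM. COL8A1, a network collagen, averaged 5.03, 5.97, 25.7 and 8.39 CPM, so that OSM+TGFB lay below TGFB alone (departure -1.86 ± 0.17). The positive ones included COL6A1 and COL6A2, chains of the collagen of the cell border, at 1.32 ± 0.22 and 2.59 ± 0.37, which OSM lowered and the pair lowered less than the sum. The mean of COL6A2 stayed under 5 CPM in PBS, OSM, TGFB and OSM+TGFB. COL5A1 was near the detection limit and is not described.

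TNC, tenascin C, a matrix protein of wound edges, measured 14.8, 10.8 and 11.9 CPM in PBS, 745, 686 and 708 in OSM, 169, 181 and 167 in TGFB and 3600, 3948 and 4117 in OSM+TGFB. Every group stood apart, and the combination was the highest. Its log2 sum still exceeded the measured change, giving a departure of -1.34 ± 0.23 (adjusted p = 2.5e-04). On the linear scale the combination exceeded the added CPM differences by 3016 CPM. THBS1, thrombospondin 1, VCAN, versican, and CCN2, connective tissue growth factor, departed by -2.14 ± 0.32, -1.60 ± 0.22 and -1.14 ± 0.19.

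FN1, fibronectin, was among the most abundant transcripts of the combination. It held 144, 111 and 141 CPM in PBS, 420.1, 344 and 304 in OSM, 2045, 1956 and 1891 in TGFB and 9276, 8548 and 8449 in OSM+TGFB. The 4 groups did not overlap. It departed by 0.72 ± 0.25 (adjusted p = 0.04), a call lost without PBS replicate 1, PBS replicate 3, OSM replicate 2, OSM replicate 3, TGFB replicate 1, TGFB replicate 2, TGFB replicate 3, OSM+TGFB replicate 1, OSM+TGFB replicate 2 or OSM+TGFB replicate 3 (adjusted p 0.058 to 0.12), and also without a filter (adjusted p = 0.077). SPARC, a collagen-binding glycoprotein, departed by 0.78 ± 0.19. FBLN5, fibulin 5 of elastic fibres, averaged 14.7, 2.07, 55.2 and 17.7 CPM, with a departure of 1.19 ± 0.16.

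Matrix-modifying enzymes and adhesion receptors were also divided (all rows 8.86% positive and 12.6% negative). Of 13 genes of collagen modification and matrix crosslinking 3 departed positively (LOX 0.96 ± 0.24, P4HA2 0.79 ± 0.11 and P4HA1 0.61 ± 0.15) and 2 negatively (P4HA3 -2.44 ± 0.41 and TGM2, transglutaminase 2, -1.29 ± 0.27). Of 13 laminin and nidogen genes 3 were positive and 2 negative, with LAMB2 at 0.996 ± 0.12 and LAMB3 at -0.61 ± 0.13. Of 19 integrins 5 were negative, with ITGA4 at -1.82 ± 0.24 and the TGFB-activating ITGB6 at -1.22 ± 0.19, and ITGB1, the common beta chain, was positive at 0.55 ± 0.10. Among 23 metalloproteinases and TIMPs 4 were positive (MMP2 0.79 ± 0.18, TIMP2 0.69 ± 0.14, TIMP1 0.47 ± 0.12 and MMP14 0.37 ± 0.11) and 2 negative (ADAM19 -2.14 ± 0.23 and ADAMTS1 -1.99 ± 0.46). The MMP14 call was lost without OSM replicate 2 or OSM+TGFB replicate 3 (adjusted p 0.053 to 0.054).

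In the plasminogen system, PLAU (urokinase) measured 77.9, 79.9 and 69.9 CPM in PBS, 96.2, 88.8 and 102 in OSM, 214, 230.03 and 219 in TGFB and 500.04, 512 and 592 in OSM+TGFB, with the combination above every other library. PLAU departed by 0.94 ± 0.18 and PLAT (tissue activator) by 0.92 ± 0.20, while the inhibitor SERPINE2 departed by -1.91 ± 0.25. Of the 9 tested genes 5 were called (all rows 21.5%), and 3 were without PBS replicate 3, TGFB replicate 1 or OSM+TGFB replicate 2.

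The contractile cytoskeleton had 3 positive and 3 negative departures among 18 genes (all rows 8.86% and 12.6%). TPM1, tropomyosin 1, was lowered by OSM and raised by TGFB, averaged 74.4, 39.04, 162 and 199 CPM and departed by 1.23 ± 0.14. VCL (vinculin) and TLN1 (talin 1), which couple integrins to actin, were positive at 0.39 ± 0.10 and 0.38 ± 0.07. The crosslinkers FLNA (filamin A) and ACTN1 (alpha-actinin 1) and the calponin CNN2 were negative at -0.81 ± 0.10, -0.71 ± 0.10 and -0.52 ± 0.07. In the list of epithelial-mesenchymal factors and cadherins 3 of 25 were positive and 4 negative (all rows 8.86% and 12.6%). CDH2, N-cadherin, averaged 3.01, 7.65, 21.9 and 36.9 CPM and departed by -0.59 ± 0.14. The pair raised it above either ligand but short of the summed log2 changes, and above the added CPM differences on the linear scale.

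NF-kB factors and feedback genes had 7 positive and 0 negative departures among 19 (all rows 8.86% and 12.6%). TNFAIP3 (A20) and NFKBIZ departed by 0.91 ± 0.20 and 0.83 ± 0.20, NFKBIA by 0.44 ± 0.10 and NFKB2 by 0.46 ± 0.11. OSM alone lowered TNFAIP3, which averaged 49.4, 31.1, 50.96 and 60.2 CPM. The count dropped to 4 without OSM replicate 3, TGFB replicate 1 or OSM+TGFB replicate 2. In cholesterol and fatty acid synthesis 9 of 33 were positive (all rows 8.86%), led by INSIG2 (0.80 ± 0.13) and MSMO1 (0.70 ± 0.18), and HSD17B7 was negative (-0.36 ± 0.10). The MSMO1 call was lost in the 12 libraries alone (adjusted p = 0.064). The HSD17B7 call was lost without PBS replicate 2 (adjusted p = 0.052). The list count of 10 was 3 without PBS replicate 3 or OSM+TGFB replicate 3, 4 without OSM replicate 1, 5 without OSM replicate 2 or TGFB replicate 1, and 6 without PBS replicate 2, TGFB replicate 2 or OSM+TGFB replicate 2.

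Smaller lists had calls in both directions (all rows 8.86% positive and 12.6% negative). Of the WNT ligands and antagonists, 4 of 23 were positive and 4 negative (5 in all without PBS replicate 3), with SFRP1, a WNT antagonist, at -1.02 ± 0.08 and NKD1, a WNT feedback gene, at 2.73 ± 0.43. The mean of NKD1 stayed under 5 CPM in PBS, OSM, TGFB and OSM+TGFB. Of 22 YAP/TEAD targets 5 were positive and 6 negative (7 in all without OSM replicate 3 or TGFB replicate 2). Of 18 Notch genes 1 was positive and 4 negative (3 in all without PBS replicate 1 or TGFB replicate 1), with NRARP, a Notch feedback gene, at -2.23 ± 0.34. Of 14 glucocorticoid-responsive genes 3 were positive (TSC22D3 0.99 ± 0.19) and 4 negative, among them the metallothionein MT2A, which averaged 325, 5499.7, 648 and 4807 CPM and departed by -1.19 ± 0.17.

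Squamous differentiation genes fell with OSM and with both ligands: their median log2 change was -3.08 in OSM, -0.37 in TGFB and -3.71 in OSM+TGFB. A departure was called in 5 of 46, all positive (all rows 8.86% positive and 12.6% negative). IVL, involucrin of the cornified envelope, measured 91.3, 116 and 127 CPM in PBS, 4.01, 4.496 and 3.84 in OSM, 260.02, 274 and 307 in TGFB and 27.5, 24.6 and 25.5 in OSM+TGFB. TGFB was the highest group and OSM the lowest, and the combination lay between OSM and PBS without overlap, a departure of 1.32 ± 0.23 (adjusted p = 3.1e-04). The count was 2 without PBS replicate 3 or OSM+TGFB replicate 3, and 3 without OSM replicate 1, TGFB replicate 1, TGFB replicate 2, OSM+TGFB replicate 1 or OSM+TGFB replicate 2. Several other lists were close to or below the share of all rows: 0 of 17 MHC class I genes in edgeR's quasi-likelihood test (1 at an unadjusted p under 0.05, 0 by DESeq2, 1 without OSM replicate 2), 0 of 13 mitochondrially encoded genes of oxidative phosphorylation (0 at an unadjusted p under 0.05 and 0 by DESeq2), 2 of 10 clade B serpins and 3 of 16 S100 proteins (1 without TGFB replicate 1).

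Inflammatory and interferon genes gave scattered calls (all rows 8.86% positive and 12.6% negative). Among 24 acute-phase proteins and STAT3 targets 1 was called, LRG1 at -1.17 ± 0.38, lost without PBS replicate 2, PBS replicate 3, OSM replicate 2, TGFB replicate 1, TGFB replicate 2, TGFB replicate 3 or OSM+TGFB replicate 1 (adjusted p 0.053 to 0.093), and also in the 12 libraries alone (adjusted p = 0.088). The list count was 2 without OSM replicate 3. Of 18 complement genes 3 were called negative, and 1 was without PBS replicate 1, OSM replicate 2, TGFB replicate 2, TGFB replicate 3 or OSM+TGFB replicate 1. Of 16 chemokines CXCL8 (-1.55 ± 0.32) and CXCL1 (-1.24 ± 0.31), which attract neutrophils, fell short of higher sums, and 1 was positive. In the interleukin-1 family the IL33 receptor IL1RL1 departed by -1.99 ± 0.36 and the signalling receptor IL1R1 by 0.996 ± 0.10, among 4 of 16 called. Of 28 interferon-stimulated genes 4 were positive and 2 negative (3 in all without OSM replicate 3, TGFB replicate 2 or OSM+TGFB replicate 2), and of 28 desmosome and tight junction genes 3 were positive (1 without PBS replicate 2, OSM replicate 1, OSM replicate 3, TGFB replicate 1 or OSM+TGFB replicate 2).

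**Figure D4:**
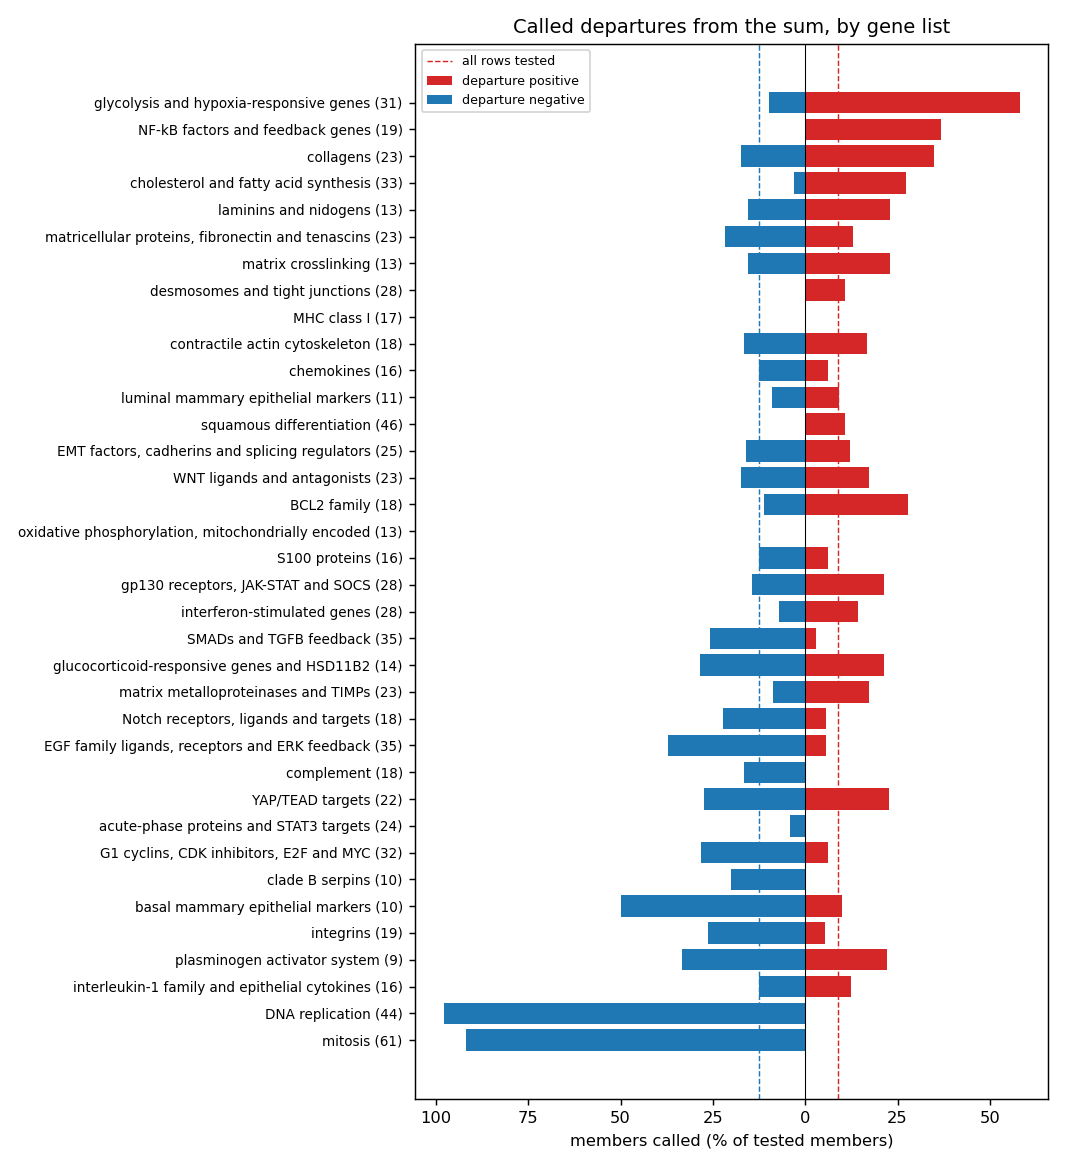
Share of tested members (%) with a called departure by gene list, negative to the left and positive to the right. The number tested is in brackets, and dashed lines mark the shares of all rows (12.6% and 8.86%). The leukocyte, endothelial and fibroblast marker lists, with few tested members, are not drawn. DNA replication and mitosis lie furthest to the left and glycolysis and hypoxia-responsive genes furthest to the right.

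Marker lists check what cells the libraries hold. The summed level of 10 basal mammary markers, which MCF10A is known to express, was 13783 to 15171 CPM in PBS, 23157 to 23922 in OSM, 18018 to 19464 in TGFB and 30328 to 32344 in OSM+TGFB. Of the 10, 5 departed negatively and 1 positively (all rows 12.6% and 8.86%). The 11 tested luminal markers summed to 2537 to 3025, 2649 to 3099, 3080.4 to 3320.4 and 3645 to 3942 CPM. Of these, EPCAM departed negatively and KRT8, a simple-epithelium keratin, positively: KRT8 held 257, 267 and 261 CPM in PBS, 163, 166 and 149 in OSM, 358, 365 and 338 in TGFB and 533, 590.4 and 595 in OSM+TGFB, highest in the combination and lowest in OSM without overlap, with a departure of 1.41 ± 0.14 (adjusted p = 3.9e-07).

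Of 10 leukocyte markers 3 passed the filter on low counts. Over the 12 libraries CD3D had 0 counts, MS4A1 1, CD3E 11, LYZ 20, PTPRC 45, CD163 60 and ITGAM 233, while the monocyte markers CD68 and CD14 had 15906 and 16091. The 3 summed to 54.96 to 61.9 CPM in PBS, 96.3 to 119 in OSM, 34.7 to 45.2 in TGFB and 68.1 to 75.1 in OSM+TGFB. Of 8 endothelial markers 5 passed. CLDN5 had 3 counts, CDH5 10, TIE1 16, TEK 75, ERG 234, PECAM1 503, VWF 519 and KDR, a VEGF receptor, 6098, and the 5 summed to 31.2 to 35.3, 4.35 to 5.09, 16.9 to 19.6 and 3.28 to 3.95 CPM in the same order. Of 10 fibroblast markers 6 passed. COL3A1 had 4 counts, PI16 6, THY1 16, PDGFRA 40, LUM and COL1A2 66 each and PDGFRB 232, while DCN (decorin), COL1A1 and FAP had 41398, 30309 and 58210. The 6 summed to 135 to 139.6, 206 to 238, 254 to 258 and 508 to 554 CPM. The part of such cells in the results was not tested. FAP, a surface protease counted among them, averaged 6.34, 128, 48.3 and 350.2 CPM and departed by -1.48 ± 0.17.

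Because folds and differences add differently, each called row was also read on the linear CPM scale, where the departure is OSM+TGFB - OSM - TGFB + PBS in CPM. The sign was the same in 636 of 641 rows that exceeded the sum upward, 447 of 464 downward, 1355 of 1491 that fell short of a higher sum, 711 of 725 that fell short of a lower one, and 32 of 34 and 26 of 26 that opposed it. Abundant matrix and adhesion genes were among those that turned. TGM2, at 4.25, 73.6, 182 and 1286 CPM, had a linear departure of 1035 CPM and FLNA one of 692 CPM, both positive against a negative log2 departure. For CCNA2 and MYBL2 the linear departures were -43.9 and -56.9 CPM, negative on both scales. METTL7A also turned, with a linear departure of 17.2 CPM. PMEPA1, OSMR, CDH2 and FAP turned as well, positive on the linear scale against negative log2 departures. Of the 6 genes with the largest shortfalls, SCG5, ZBED2, SPOCD1 and MFAP2 had positive linear departures of 4.296, 2.29, 10.5 and 4.49 CPM, and KCNJ15 and TNFRSF6B negative ones of -2.95 and -18.4 CPM. In all, 39 of the 189 called genes named by rule or in the text turned. For these genes the direction of the departure held on one scale and not on the other.

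With EGF in every group, 1452 rows departed (8.74%), 890 upward (5.36%) and 562 downward (3.38%). These 12 libraries share none with the contrast without EGF. Of the 3565 rows called without EGF, 2982 (83.6%) had a departure of the same sign with EGF, against 65.5% of all rows. In 751 the EGF departure was itself called with the same sign, and in 30 with the opposite one. The change of the departure with EGF, the 3-way contrast, was called in 560 rows (3.37%), of which 441 were among the 3565. The 3-way contrast subtracts the departure that chose the 3565 rows, so this overlap carries no test.

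Departures were smaller with EGF. The median over the rows that fell short of a higher sum was -0.58 without and -0.21 with EGF, and over those that exceeded it upward 0.39 and 0.15. The rows were chosen on the values without EGF, and how much of the difference comes from that choice was not tested. In edgeR's quasi-likelihood test 0 of 44 DNA replication and 0 of 61 mitosis genes had a called departure with EGF (15 and 1 lower at an unadjusted p under 0.05, and 1 and 0 called by DESeq2), with medians of -0.30 for DNA replication and -0.26 for mitosis. Glycolysis and hypoxia-responsive genes departed upward again, with 15 of 31 called upward, 0 downward and a median of 0.39. Of the 19 NF-kB factors and feedback genes, 0 were called upward and 2 downward with EGF (all rows 5.36% and 3.38%). At an unadjusted p under 0.05, as by DESeq2, 1 was higher and 3 were lower, and their median was -0.03.

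Among the genes with the largest departures, some held with EGF. TNS1 departed by 1.81 ± 0.17 (adjusted p = 2.4e-07), PDE4DIP by 1.90 ± 0.08 (adjusted p = 1.3e-13) and WNT5A by 2.27 ± 0.24 (adjusted p = 2.8e-06). EPCAM and NUP210 departed by -1.17 ± 0.19 and -0.996 ± 0.19, and LCE3D by 2.16 ± 0.63. COL5A3, SAPCD2 and FZD4 departed by 0.86 ± 0.24, -0.78 ± 0.23 and -0.95 ± 0.23, all called. The EGF departures of NMU (-0.27 ± 0.33), WNT4 (0.16 ± 0.69) and KRT1 (2.53 ± 2.70) were not called.

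Others changed. SLCO2A1 averaged 0.749 ± 0.0708 CPM in EGF, 17.7 ± 2.84 in EGF+OSM, 5.31 ± 1.32 in EGF+TGFB and 158 ± 5.12 with all 3 ligands. It was again highest in the combination, but against EGF each single ligand already raised it, and the departure was 0.33 ± 0.31 (adjusted p = 0.57). LMCD1 reached 24.01 ± 2.01 CPM in EGF+TGFB, against 2.76 ± 0.0951 in TGFB without EGF, and its departure with EGF was 1.45 ± 0.19.

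PMEPA1 fell short of the sum without EGF and departed by 0.45 ± 0.14 with it (adjusted p = 0.045). The 3-way contrast of PMEPA1 was 2.01 ± 0.20 (adjusted p = 6.2e-06). FBLN5 opposed its sum without EGF and fell below it with EGF, at -0.86 ± 0.19 (3-way contrast -2.06 ± 0.25, adjusted p = 3.3e-05). SERPINB5, maspin, a clade B serpin, departed by -0.48 ± 0.07 without and 0.53 ± 0.07 with EGF (3-way adjusted p = 6.2e-06). FN1 departed by 2.41 ± 0.25 with EGF, with a 3-way contrast of 1.68 ± 0.35 (adjusted p = 0.0084). TNFRSF6B, MFAP2 and TMEM265 are not compared here, since a group held 3 counts or fewer.

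**Figure D5:**
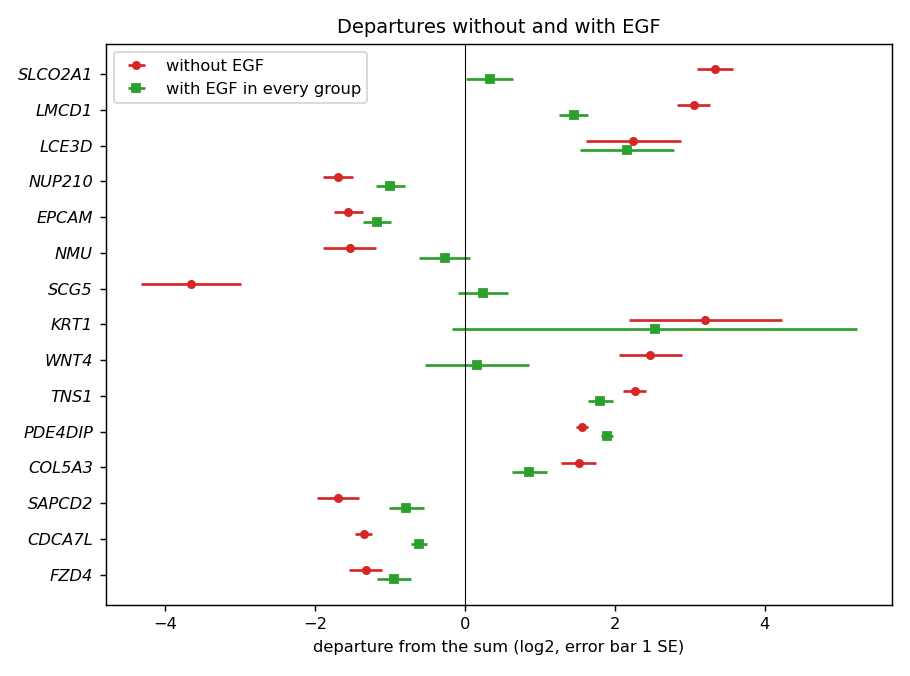
Departure from the sum (log2) without EGF (circles) and with EGF in every group (squares) for 15 genes among the first 3 of each class, with error bars of 1 SE. SLCO2A1, LMCD1 and SCG5 move towards 0 with EGF, and TNS1 and PDE4DIP stay clearly above it.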

How the data were processed

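Polyadenylated RNA was sequenced in 27 MCF10A libraries with a stranded kit, 3 in each of 9 groups given by the labels. The authors deposited a table of whole-number values per gene identifier, treated here as estimated counts. The submitters' processing notes list Trim Galore 0.4.3, cutadapt 1.10, FastQC 0.11.5, kallisto 0.46.2 and R 3.5.0 and the builds GRCh38.p5 and hg38, without their roles. Kallisto gives estimated counts that need not be whole, so the deposited counts may have been rounded by the authors. Rounding them again changed nothing. Rows that name no gene symbol kept their identifier and took 0.324% of the counts.

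Of 40487 rows, 16611 passed filterByExpr by group. EdgeR 4.0.16 (R 4.3.3) with TMM scaling (factors 0.867 to 1.12 over the 27 libraries) fitted a quasi-likelihood model with a mean per group over all 27 libraries (18 residual degrees of freedom, robust), and contrasts were tested with glmQLFTest. All p-values were adjusted by Benjamini-Hochberg over all rows of a contrast, and fitted folds used a prior count of 0.125. CPM are scaled by TMM. The steps were tested on simulated data. The sum was the contrast OSM + TGFB - 2 PBS. A called departure was classed from the called signs of sum and combination. Nothing in the labels says that replicates came from separate cultures, so p-values measure the spread between these samples, which may be technical. Replicates differed by more than sampling noise (chi-square per degree of freedom 7.65 to 31.5) and each counted as 1. Intervals of counting error are narrower than this spread.

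A gene with several rows entered once, by its most abundant row. Named genes were, by rule, those with the largest called departure in each class (8 exceeding upward, 6 exceeding downward, 6 and 6 falling short, 3 and 3 opposing, at a mean of 5 CPM or more in some group) and up to 4 called members of each of 39 gene lists. A further 44 genes of the text were chosen after their values were seen, being neither first in a class nor among the 4 leading members of a list. The members and lists were chosen with earlier results of these data known. Lists were written from general knowledge and share some genes. Coordinates are GENCODE v44 on GRCh38, matched by identifier. Promoters are from RefSeq (GRCh38.p14) and matched 11408 of 14872 tested symbols. Alternatives were DESeq2 1.42.0, upper-quartile scaling, no filter, the 12 libraries alone, a replicate block, each library left out, a 2-fold limit, identical rows once and the linear CPM scale. Some genes of the lists are not reported here by name.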

Additional observations from a re-analysis of the deposited data

Results flagged for a closer look

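In 11 of the 32 genes with the largest departures of their class, counting those with over 3 counts in each group, the departure from the sum differed with EGF by the test of the difference itself, the 3-way contrast of edgeR's quasi-likelihood model (departure with EGF minus departure without). Such a difference was called in 3.37% of all rows. The 32 genes were chosen by their departures without EGF, which the 3-way contrast subtracts. A share above that of all rows can follow from this choice, and how much does was not tested. TNFRSF6B, MFAP2 and TMEM265 were left out of the 11, since a group held 3 counts or fewer. For SLCO2A1, the prostaglandin transporter, the departure was 3.33 ± 0.24 without and 0.33 ± 0.31 with EGF, a difference of -3.002 ± 0.37 (adjusted p = 6.9e-05). EGF alone held 0.825, 0.739 and 0.684 CPM, below every PBS library. For LMCD1 the difference was -1.60 ± 0.29 (adjusted p = 0.0021), with departures of 3.05 ± 0.22 and 1.45 ± 0.19.

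SCG5, a chaperone of secretory granules, departed by -3.65 ± 0.67 without and 0.24 ± 0.33 with EGF, a difference of 3.89 ± 0.76 (adjusted p = 0.0043). It had 4 counts in PBS against 1021 in EGF, and 2 rows in the table. CDCA7L opposed its sum by -1.35 ± 0.11 without and -0.61 ± 0.11 with EGF, a difference of 0.75 ± 0.15 (adjusted p = 0.0059).

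The departures of KCNJ15 and ZBED2 were smaller with EGF. KCNJ15 departed by -1.11 ± 0.14 with EGF, a difference of 1.97 ± 0.21 (adjusted p = 6.6e-06). ZBED2 departed by -0.500 ± 0.23 with EGF, a difference of 2.29 ± 0.46 (adjusted p = 0.0061). For SPOCD1 the difference was 2.54 ± 0.58 (adjusted p = 0.016), and it had 13 counts in PBS. METTL7A differed by 1.502 ± 0.33 (adjusted p = 0.011), DENND3 by -1.63 ± 0.26 (adjusted p = 6.6e-04), PAPSS2 by -1.80 ± 0.37 (adjusted p = 0.0065) and FNIP2 by -0.735 ± 0.19 (adjusted p = 0.033).

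Of the list genes described with EGF, FBLN5 differed by -2.06 ± 0.25, FN1 by 1.68 ± 0.35, PMEPA1 by 2.01 ± 0.20 and SERPINB5 by 1.004 ± 0.10, with adjusted p of 3.3e-05, 0.0084, 6.2e-06 and 6.2e-06. These 4 differences were picked after their values were seen.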

How the results depend on the processing

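The count of 3565 called departures was 3766 with DESeq2, 3633 with upper-quartile scaling, 2896 without a filter, 3148 in the 12 libraries alone and 3525 with identical rows once. Nothing in the labels says what a replicate number marks. Deviations from the group mean correlated over 0.1 in 11 of 18 same-numbered pairs (-0.0349 to 0.343, and -0.227 to 0.0404 for other pairs). In 34 of 36 matches of a sample with another group the best one had its own number. Same-numbered libraries thus tended to deviate alike, which the main fit leaves out, and the reason was not tested. With the replicate number as a block the calls rose to 4342, the opposing classes to 52 upward and 56 downward, and the departures with EGF to 2411. Without a filter 22 rows opposed upward. Requiring 2-fold left 725 departures (232 positive, 493 negative), with 58 and 49 exceeding upward and downward, 421 and 143 falling short of higher and lower sums, 13 and 7 opposing, and 333 with EGF. Leaving out each library in turn gave 2975 to 3444 called departures, 1070 to 1392 positive and 1766 to 2290 negative. The exceeding classes ranged from 447 to 582 upward and 357 to 530 downward, those falling short from 1261 to 1604 and 544 to 701, those opposing from 13 to 29 upward and 14 to 38 downward, and departures with EGF from 914 (without EGF+OSM replicate 3) to 1584. The median departure over all rows stayed between -0.0345 and 0.0121. Over 195 genes named by rule or in the text, 0 changed sign in a fitted alternative (39 of 189 called ones did on the linear CPM scale), and 42 lost the call in some alternative other than the 2-fold limit; the cause was not tested. A mean over 3 libraries sets the precision, and departures, which carry the spread of 4 groups, are less precise than single folds.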
